A study of Mus musculus with 6 samples.

Results

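Immunoglobulin constant, joining and variable segments, together with the joining chain gene Jchain, were followed in messenger RNA of haematopoietic stem and progenitor cells (HSPCs) treated with vehicle or uridine. Members were chosen by biotype and by summed read count: a gene was included when the deposited table gave it an immunoglobulin constant, joining, diversity or variable biotype, or when it was Jchain, and when its counts summed to at least 60 over the 6 libraries. By this rule 43 of 265 such genes were included, out of 54532 genes in the table. They were 9 constant segments, 29 variable segments, 4 joining segments and Jchain, and no diversity segment reached the minimum. The sum that chose the members was taken over both groups together, so a segment that was abundant in either group could pass.

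The HSPCs were taken from C57BL/6 mice that were wild type (WT) and aged, with bone marrow as the source, and 3 libraries were made after vehicle and 3 after uridine, the pyrimidine nucleoside that cells use as a building block of RNA. The labels call the material cultured cells and give no dose, duration or sorting markers, nor the age beyond the word aged. They do not say whether the 3 libraries of a group came from separate animals or cultures, so every p-value measures only the spread between these libraries, which may be technical.

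An antibody is built from heavy and light chains, and the variable end of each chain is encoded by a variable (V), a joining (J) and, in heavy chains, a diversity (D) segment that the RAG recombinase joins in developing lymphocytes. The constant segment then sets the class of the heavy chain (mu for IgM, alpha for IgA, gamma for IgG, delta for IgD) or the type of the light chain (kappa or lambda). Plasma cells secrete these chains in bulk and reside in the bone marrow, while early progenitors can transcribe unrearranged segments before recombination. A count per segment does not tell a rearranged from an unrearranged transcript, or a secreted from a membrane-bound form.

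Library totals ran from 16109265 to 18638627 counts, and 3 counts corresponded to 0.161 to 0.186 CPM (the depth-scaled count, with library totals adjusted by TMM factors), which covers counting error only. All 12 HSPC markers were detected, with mean levels from 4.65 (Procr) to 620.1 CPM (Cd34) with vehicle and from 3.50 (Ly6a) to 618 CPM (Cd34) with uridine. They did not move as a unit: 6 rose, such as Kit from 365 ± 1.64 to 383 ± 3.12 CPM (SD, n = 3 here and below), and 3 fell, among them Ly6a, which encodes Sca-1, from 15.03 ± 0.838 to 3.50 ± 0.659 CPM. Over all 14706 genes that passed the filter on low counts, 1056 rose and 1488 fell with uridine, and the median log2 fold change was 0.0053. Genes were called at an adjusted p under 0.05 by edgeR's quasi-likelihood test with Benjamini-Hochberg adjustment over these genes, and all adjusted p-values of genes are from that test unless another is named.

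Immunoglobulin transcripts were lower after uridine. The 43 members summed to 524, 520.02 and 522 CPM in vehicle replicates 1, 2 and 3 and to 335, 330.4 and 343 CPM in uridine replicates 1, 2 and 3. The groups were far apart against their spread, with means of 522 ± 1.84 and 336 ± 6.16 CPM, a difference of -35.6%. The members held 0.0520% of all counts with vehicle and 0.0337% with uridine, so they were a small part of the RNA in either group. All 43 members passed the filter on low counts, and 14 fell (32.6%), against 10.1% of all tested genes, while 1 rose (2.33%), against 7.18%. The remaining 28 were not called. The median log2 fold change of the members was -0.58, with a range from -2.45 to 1.78. In 22 members (51.2%) every uridine library was below every vehicle library, against 16.1% of all tested genes, and in 2 members every uridine library was above, against 14.7%. Fewer immunoglobulin-expressing cells and less immunoglobulin RNA per cell cannot be told apart in bulk RNA.

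**Figure D1:**
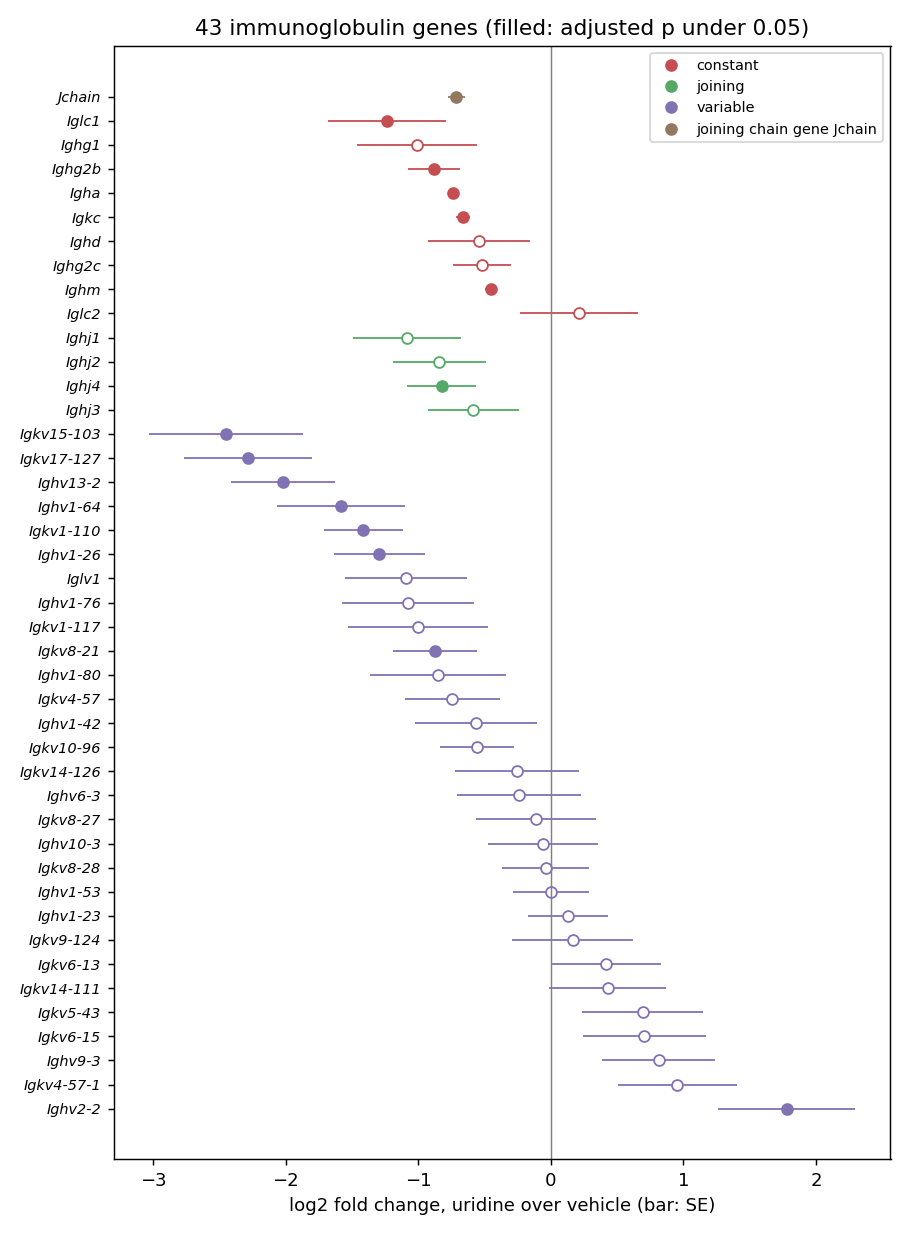
Log2 fold change of uridine over vehicle on the horizontal axis for each of the 43 members, listed on the vertical axis by class, with bars of 1 SE and filled points for an adjusted p under 0.05. The filled points lie left of zero for 14 genes and right of it for Ighv2-2 at 1.78, and the bars widen toward the sparsely counted variable segments.

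Of the 9 constant segments, 5 fell and 4 were not called. Igha, the constant segment of the IgA heavy chain (ENSMUSG00000095079, mm10 chr12:113254830-113260236, minus strand), was counted at 216, 210.5 and 209 CPM in vehicle replicates 1, 2 and 3 and at 129.9, 122 and 128 CPM in uridine replicates 1, 2 and 3. Every uridine library lay well below every vehicle library. Its mean went from 212 ± 3.86 to 127 ± 4.07 CPM, a log2 fold change of -0.74 ± 0.032 (SE) with an adjusted p of 5.4e-31.

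Ighm, the constant segment of IgM and the first heavy-chain class that B-lineage cells make (ENSMUSG00000076617, chr12:113418558-113422730, minus strand), had 114, 121 and 114 CPM in the vehicle libraries. The uridine libraries had 82.2, 85.2 and 87.1 CPM. The groups did not overlap, and the decrease was smaller than that of Igha, with a log2 fold change of -0.45 ± 0.041 and an adjusted p of 7.6e-15. Igkc, the kappa light-chain constant segment (ENSMUSG00000076609, chr6:70726435-70726966, plus strand), had 87.0, 82.7 and 86.1 CPM with vehicle and 52.2, 50.3 and 59.4 CPM with uridine. All 3 uridine libraries were below all 3 vehicle libraries, with a log2 fold change of -0.66 ± 0.051 and an adjusted p of 9.1e-18. The Igkc row overlaps the long noncoding RNA Gm30211 on the same strand, to which 36 counts were assigned in all 6 libraries together, beside 7321 for Igkc.

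Jchain encodes the small polypeptide that links IgA into dimers and IgM into pentamers, and lies outside the immunoglobulin loci (ENSMUSG00000067149, chr5:88519809-88527891, minus strand). It stood at 48.7, 48.9 and 53.4 CPM in the vehicle libraries and at 31.0, 31.2 and 29.8 CPM in the uridine libraries. The groups were again separate, and the log2 fold change was -0.71 ± 0.065 with an adjusted p of 1.4e-14. Igha, Ighm, Igkc and Jchain stayed called under each of the alternative settings tried, with log2 fold changes from -0.76 to -0.71 for Igha, -0.47 to -0.43 for Ighm, -0.73 to -0.61 for Igkc and -0.74 to -0.67 for Jchain.

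**Figure D2:**
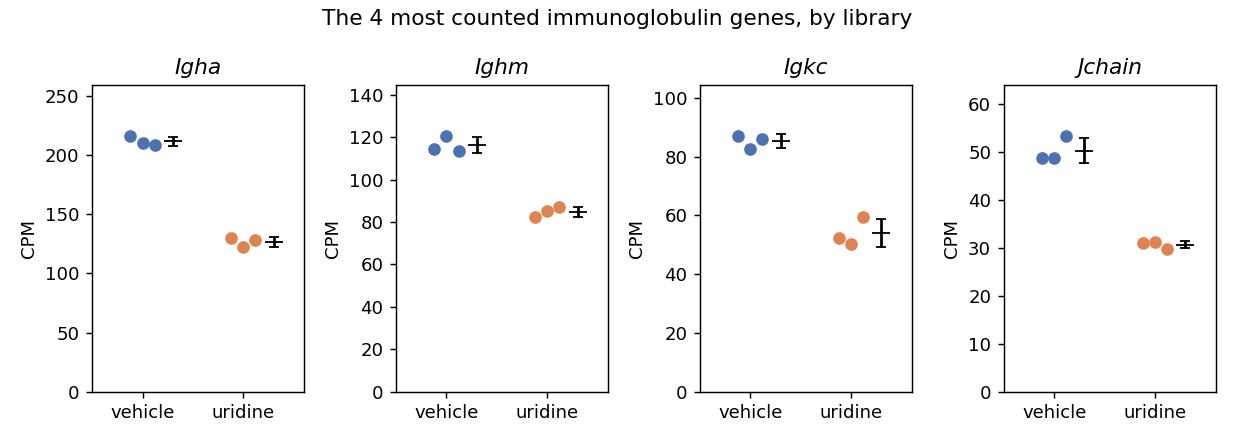
CPM in each of the 6 libraries (points) with the group mean and SD for the 4 most counted members, Igha, Ighm, Igkc and Jchain. In each panel the 3 uridine points sit below the 3 vehicle points, for Igha between 122 and 129.9 against 209 to 216 CPM.

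Per kilobase of gene length, the order among these genes was the same in both groups. Igkc was highest at 160.2 CPM per kilobase with vehicle and 101 with uridine, followed by Igha at 79.4 and 47.5, Ighm at 61.6 and 44.99, and Jchain at 19.99 and 12.2. Within the heavy-chain constant counts, Igha took 62.2% ± 0.857 with vehicle and 57.9% ± 1.39 with uridine, and Ighm took 34.1% ± 0.918 and 38.7% ± 1.02. The ratio of Ighm to Igha counts was 0.529, 0.573 and 0.545 with vehicle and 0.633, 0.698 and 0.680 with uridine. All uridine ratios were above all vehicle ratios, with an exact two-sided permutation p of 0.1, the smallest that 3 against 3 libraries allow, and an adjusted p of 0.3 over the 3 ratios tested. The ratios of Igkc to Igha (exact permutation p 0.5) and of Jchain to Igha (0.6) overlapped between groups. Light-chain constant counts were 97.8% kappa with vehicle and 97.6% with uridine, and the libraries of the groups overlapped.

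Among the IgG segments, Ighg2b was counted at 6.62, 6.12 and 5.07 CPM with vehicle and at 2.16, 3.43 and 4.09 CPM with uridine. It fell, without overlap between groups, by 0.88 ± 0.20 on the log2 scale with an adjusted p of 5.1e-04. Ighg2c had 3.34, 3.77 and 4.68 CPM with vehicle and 2.45, 2.79 and 2.98 CPM with uridine; the groups did not overlap, but the log2 fold change of -0.52 ± 0.22 was not called (adjusted p 0.0969). Ighg1 (log2 fold change -1.01 ± 0.45, adjusted p 0.121) and the IgD segment Ighd (-0.54 ± 0.39, adjusted p 0.386) were not called. The libraries of Ighg1 overlapped between groups. Those of Ighd did not, although its highest uridine value, 1.109 CPM, nearly met its lowest vehicle value, 1.113 CPM. For the lambda light chain, Iglc1 had 1.38, 1.35 and 0.835 CPM with vehicle and 0.642, 0.536 and 0.310 CPM with uridine, which did not overlap. Its log2 fold change of -1.24 ± 0.44 was called at an adjusted p of 0.0423, and leaving out vehicle replicate 1 (adjusted p 0.162) or 2 (0.153), or uridine replicate 1 (0.0605), 2 (0.0995) or 3 (0.190), ended the call. It was also lost under DESeq2 (0.102), limma-voom (0.0532) and with no count filter (0.0798). Iglc2 stood at 0.21 ± 0.45 on the log2 scale (adjusted p 0.818). It is 95.4% identical to Iglc3, with a longest shared run of 79 bases, and whether reads were split between them was not tested.

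The 4 joining segments that reached the minimum were those of the heavy chain, Ighj1 to Ighj4, which lie upstream of Ighm on the minus strand of chromosome 12. They are shown in full, since each is one short coding piece that ends up between the variable and the constant part of a heavy chain. The letters are from GENCODE vM21 transcripts on the same assembly (GRCm38, the mm10 sequence), 5′ to 3′ on the coding strand, and the capitals mark TGGGG, which holds the tryptophan codon at the start of the framework that closes the variable domain.
Ighj1: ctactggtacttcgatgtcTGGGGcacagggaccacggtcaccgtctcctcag
Ighj2: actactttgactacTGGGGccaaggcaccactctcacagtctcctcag
Ighj3: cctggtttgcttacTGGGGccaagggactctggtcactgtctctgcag
Ighj4: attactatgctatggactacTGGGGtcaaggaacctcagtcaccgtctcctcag
These lie at chr12:113429781-113429833, chr12:113429468-113429515, chr12:113429085-113429132 and chr12:113428514-113428567, in the order printed, and the Ighj2 row of the table also takes in a neighbouring annotated transcript. TGGGG was found in 4 of 4 heavy-chain joining segments and in 4 of 14 joining segments of all loci on the coding strand, and in none on the other strand.

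Of these 4, Ighj4 fell and the others were not called. Ighj4 was counted at 3.05, 3.09 and 3.45 CPM with vehicle and at 1.34, 2.25 and 1.80 CPM with uridine. Every uridine library was lower, with a log2 fold change of -0.82 ± 0.26 and an adjusted p of 0.0179. The call was lost without vehicle replicate 3 (adjusted p 0.0808) or uridine replicate 1 (0.110). Ighj1 had 1.497, 1.57 and 1.89 CPM with vehicle and 0.233, 0.589 and 1.55 CPM with uridine, so that uridine replicate 3 reached into the vehicle range (adjusted p 0.0549). Ighj2 (log2 fold change -0.84, adjusted p 0.0896) and Ighj3 (-0.58, adjusted p 0.272) had no uridine library above any vehicle library, although for Ighj2 the highest uridine value, 1.232 CPM, nearly met the lowest vehicle value, 1.236 CPM. Summed over the 4 segments, joining counts were 8.48 ± 1.35 CPM with vehicle and 4.79 ± 1.11 CPM with uridine.

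The 29 variable segments were each counted at low levels, with wide errors. Of them 7 fell, 1 rose and 21 were not called, with a median log2 fold change of -0.25; the mean CPM was lower with uridine for 20 and higher for 9. By locus, 3 of 12 heavy-chain and 4 of 16 kappa variable segments fell, and the lambda segment Iglv1 was not called. The variable segments summed to 35.8 ± 0.529 CPM with vehicle and 26.3 ± 2.25 CPM with uridine, a difference of -26.4%, beside -35.8% for the constant segments. Per 100 constant counts there were 8.22, 8.29 and 8.61 variable counts with vehicle and 10.39, 10.05 and 8.42 with uridine, which overlapped. Over all 218 variable segments in the table, with no count minimum, those with at least 10 counts numbered 39, 41 and 37 in the vehicle libraries and 26, 31 and 24 in the uridine libraries. Fewer variable segments were thus detected at that level after uridine in every library.

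**Figure D3:**
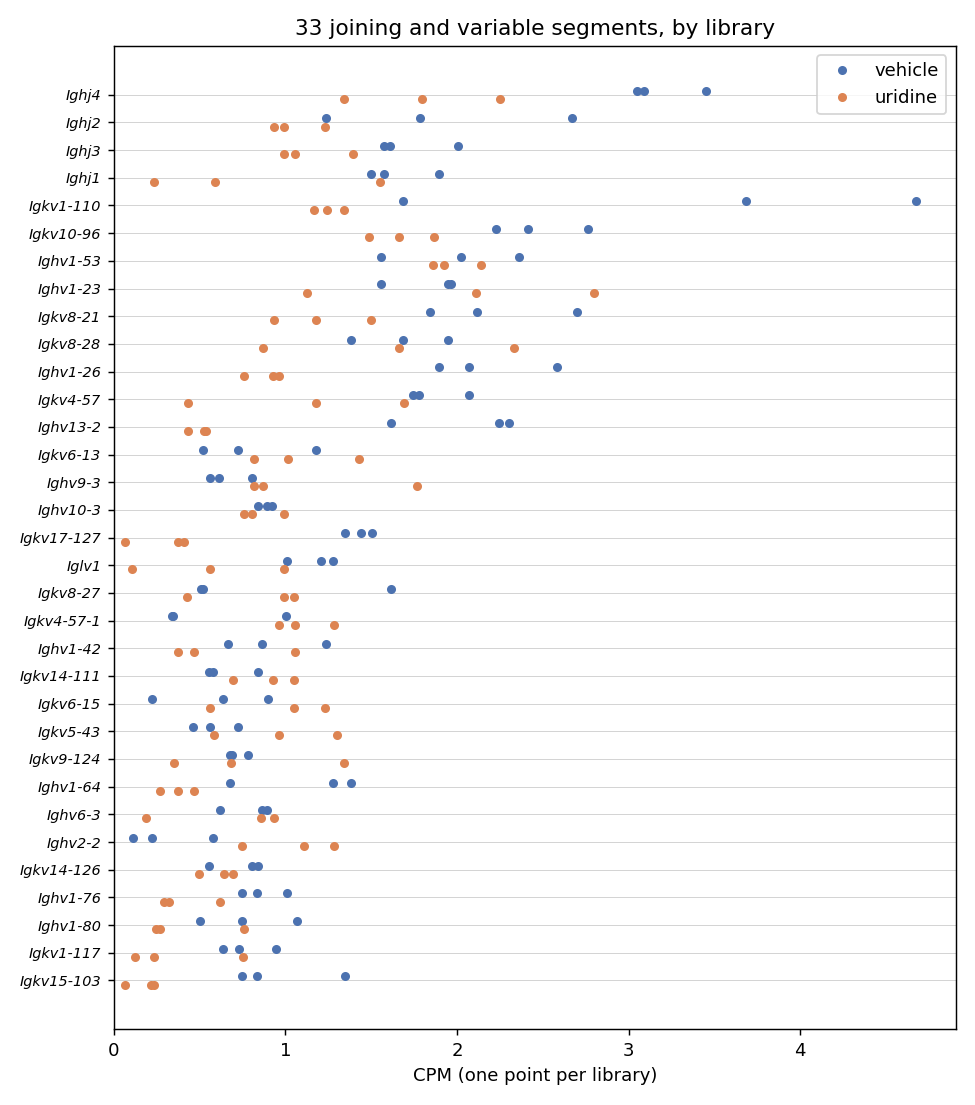
CPM in each library (1 point per library, vehicle blue and uridine orange) for the 33 joining and variable members, sorted within each class by total count. Among the segments whose groups are fully apart are Ighj4, Igkv1-110, Ighv13-2 and Igkv17-127 with uridine lower and Ighv2-2 with uridine higher. Ighv1-53 and Ighv1-23 are among those that overlap.

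The ends of 4 variable segments are printed: the called segment with the most counts (Igkv1-110), the lowest fold changes of the kappa (Igkv15-103) and heavy-chain (Ighv13-2) loci, and the segment that rose (Ighv2-2). Each is the last 90 coding bases of the segment, from GENCODE vM21, 5′ to 3′ on the coding strand. Capitals mark the last match to TANTNNTGN, which ends on the codon of the conserved cysteine before the junction with the joining segment; in the segments printed, the codons just ahead of it encode tyrosine and then tyrosine or phenylalanine.
Igkv1-110: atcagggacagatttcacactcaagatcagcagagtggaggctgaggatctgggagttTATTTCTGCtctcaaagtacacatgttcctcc
Igkv15-103: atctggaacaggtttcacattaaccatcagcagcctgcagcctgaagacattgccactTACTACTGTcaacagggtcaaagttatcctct
Ighv13-2: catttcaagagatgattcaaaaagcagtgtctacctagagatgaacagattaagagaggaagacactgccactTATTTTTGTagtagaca
Ighv2-2: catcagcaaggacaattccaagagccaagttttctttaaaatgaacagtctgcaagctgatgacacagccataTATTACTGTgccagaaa
They lie at chr6:68271178-68271267 (plus strand), chr6:68437836-68437925 (plus), chr12:114357759-114357848 (minus) and chr12:113588267-113588356 (minus), in the order printed. The motif was found in this window in 210 of 218 variable segments (96.3%) on the coding strand and in 36 (16.5%) on the other. The pattern, though not each marked letter, is thus shared by nearly all variable segments.

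Igkv1-110 was the most counted of the 4, at 3.68, 1.69 and 4.68 CPM with vehicle and 1.17, 1.34 and 1.24 CPM with uridine. The vehicle libraries varied among themselves more than the uridine libraries did, yet all were higher, and the log2 fold change was -1.42 ± 0.30 with an adjusted p of 2.0e-04. Igkv15-103 had 0.748, 1.35 and 0.835 CPM with vehicle and 0.233, 0.214 and 0.0620 CPM with uridine. It had the lowest log2 fold change of the members, -2.45 ± 0.58, with an adjusted p of 9.7e-04, and the value of uridine replicate 3 rests on 1 count. Ighv13-2 went from 2.25, 2.30 and 1.61 CPM to 0.525, 0.536 and 0.434 CPM, groups that did not overlap, with a log2 fold change of -2.02 ± 0.39 and an adjusted p of 5.0e-05. The variable segments nearest to Igkv15-103 and Ighv13-2 in sequence were 74.9% (Igkv11-125) and 79.8% (Ighv6-3) identical.

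Igkv17-127 fell from 1.44, 1.35 and 1.503 CPM to 0.409, 0.375 and 0.0620 CPM (log2 fold change -2.29 ± 0.48, adjusted p 2.0e-04), where uridine replicate 3 again rests on 1 count. Ighv1-26 fell from 2.07, 2.58 and 1.89 CPM to 0.759, 0.964 and 0.930 CPM (-1.30 ± 0.34, adjusted p 0.0035). Neither of these overlapped between groups. Ighv1-64 was called at -1.58 ± 0.48 (adjusted p 0.0137), but not without vehicle replicate 1 (0.0977) or 3 (0.0761) or uridine replicate 2 (0.0888). Igkv8-21 was called at -0.87 ± 0.32 (adjusted p 0.0454), but not under DESeq2 (0.0953), limma-voom (0.0582) or no count filter (0.0642). The Igkv8-21 call was also lost without vehicle replicate 2 (0.217) or 3 (0.0828) or uridine replicate 1 (0.168) or 3 (0.0932). Not every abundant variable segment was lower: Ighv1-53 had a log2 fold change of 0.0013 and Ighv1-23 of 0.13, and neither was called. Igkv10-96 had lower values in every uridine library and a log2 fold change of -0.56 that was not called (adjusted p 0.178).

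Ighv2-2 was the member that rose. It had 0.576, 0.112 and 0.223 CPM with vehicle and 1.11, 1.29 and 0.744 CPM with uridine, which did not overlap, with 71 counts in all 6 libraries together. The vehicle values rest on 10, 2 and 4 counts, so that of vehicle replicate 2 cannot be told from zero. Its log2 fold change was 1.78 ± 0.52 with an adjusted p of 0.0089, a call that was lost without vehicle replicate 2 (0.0964) or 3 (0.0598) or uridine replicate 2 (0.0746). Without vehicle replicate 1 its log2 fold change was 2.60. DESeq2 gave it no adjusted p. Ighv2-2 is 97.7% identical to Ighv2-4, with which it shares an unbroken run of 160 bases, longer than a sequenced read end of 150 bases. Ighv2-4 itself had 0 counts over the 6 libraries. Whether reads from the shared run affected the count of Ighv2-2 was not tested, so that count is uncertain. In all, 16 of the 29 variable members had another variable segment at least 95% identical in sequence. Among them were Igkv17-127 (97.5% to Igkv17-121, longest shared run 143 bases) and Igkv1-110 (97.2% to Igkv1-117, 142 bases). Only 2 of the 29, Ighv2-2 included, shared a run of at least 150 bases with their nearest segment. No source used here says how the authors counted reads that match several segments. Of the 15 called members, 10 kept their call under every alternative that gave them an adjusted p. A missing adjusted p, as for Ighv2-2 under DESeq2, was not counted as a loss, so not each of the 10 need have been called by DESeq2. Just inside the count minimum, 6 members with 60 to 75 counts had log2 fold changes from -2.45 to 1.78. Just outside it lay 11 segments with 45 to 59 counts, among them Igkv6-23, Igkv12-41 and Ighv1-82; 4 of these 11, Igkv12-41 included, passed the filter on low counts, with log2 fold changes from -1.501 to 0.98.

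The genes that build, regulate and secrete immunoglobulins were described in 4 lists. In the list of pre-B-cell receptor and B-cell receptor signalling, 1 of 14 tested genes rose and 13 were not called, beside 7.18% that rose among all tested genes. The kinase Syk rose from 318 ± 8.13 to 339 ± 5.48 CPM, a log2 fold change of 0.10 ± 0.025 (adjusted p 0.0028) that was lost without vehicle replicate 3 (0.0509). The receptor subunits Cd79a (0.33), Cd79b (-0.17) and the surrogate light-chain gene Vpreb1 (0.03) were not called on the log2 scale. The other surrogate light-chain gene tested, Igll1, had all uridine libraries above all vehicle libraries but was not called (0.91 ± 0.40, adjusted p 0.116).

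Of 12 tested genes for V(D)J recombination and class switching, 2 fell and 10 were not called, beside 17.3% of all tested genes called in either direction. Dntt, the terminal transferase that adds bases at the junctions, had 21.0, 17.7 and 20.5 CPM with vehicle and 11.6, 8.94 and 12.7 CPM with uridine. The groups did not overlap (log2 fold change -0.84 ± 0.11, adjusted p 3.5e-09). Prkdc, the kinase of end joining, fell by 0.35 ± 0.045 on the log2 scale (adjusted p 3.1e-09). The recombinase genes did not pass the filter on low counts and were not tested in the comparison: Rag1 had 1, 7 and 8 counts with vehicle and 5, 10 and 30 with uridine, and Rag2 had 10, 4 and 8 against 8, 9 and 3. With no count filter, neither was called by edgeR (log2 fold change 1.53 ± 0.58, adjusted p 0.0846 for Rag1, and -0.12 ± 0.68, adjusted p 0.954 for Rag2), and uridine replicate 3 held 30 of the Rag1 counts.

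Of 17 tested B-lineage transcription factors, 6 fell and 1 rose, beside 10.1% and 7.18% of all tested genes. Pou2f2, which encodes the octamer-binding factor Oct-2 that acts at immunoglobulin promoters, had 29.3, 33.04 and 30.6 CPM with vehicle and 7.88, 9.11 and 9.99 CPM with uridine. It fell furthest of the list, by 1.79 ± 0.097 on the log2 scale (adjusted p 2.2e-25). Its coactivator Pou2af1 rose, from 1.78, 1.52 and 1.84 CPM to 3.91, 3.43 and 2.67 CPM, without overlap (0.96 ± 0.26, adjusted p 0.0045). Irf8 (-0.61), Spi1 (-0.37), Bcl11a (-0.23) and Ikzf1 (-0.18), all of them also used in other blood lineages, fell. Pou2f1 fell (-0.19, adjusted p 0.0089) but was not called without vehicle replicate 1 (0.0733) or 2 (0.0548) or uridine replicate 1 (0.0758). Pax5, the factor that holds cells to the B lineage, was above in every uridine library without being called (0.63 ± 0.26, adjusted p 0.0785), and Ebf1 stood at 0.0095.

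In the plasma cell and antibody secretion list, 3 of 16 tested genes fell and 13 were not called, beside 10.1% that fell among all tested genes. The 3 were Edem1 (-0.22), Pdia4 (-0.19) and Hsp90b1 (-0.15), which serve protein quality control and folding in the endoplasmic reticulum. Xbp1, the factor that drives the secretory programme, had 139 ± 1.30 CPM with vehicle and 139.8 ± 5.30 with uridine, and Mzb1, a plasma cell chaperone cofactor, had 1.17 ± 0.342 and 1.35 ± 0.297; neither was called. Against the medians of the lists, which were 0.08, 0.014, -0.06 and -0.11 in the order given, the median of the immunoglobulin members was -0.58.

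**Figure D4:**
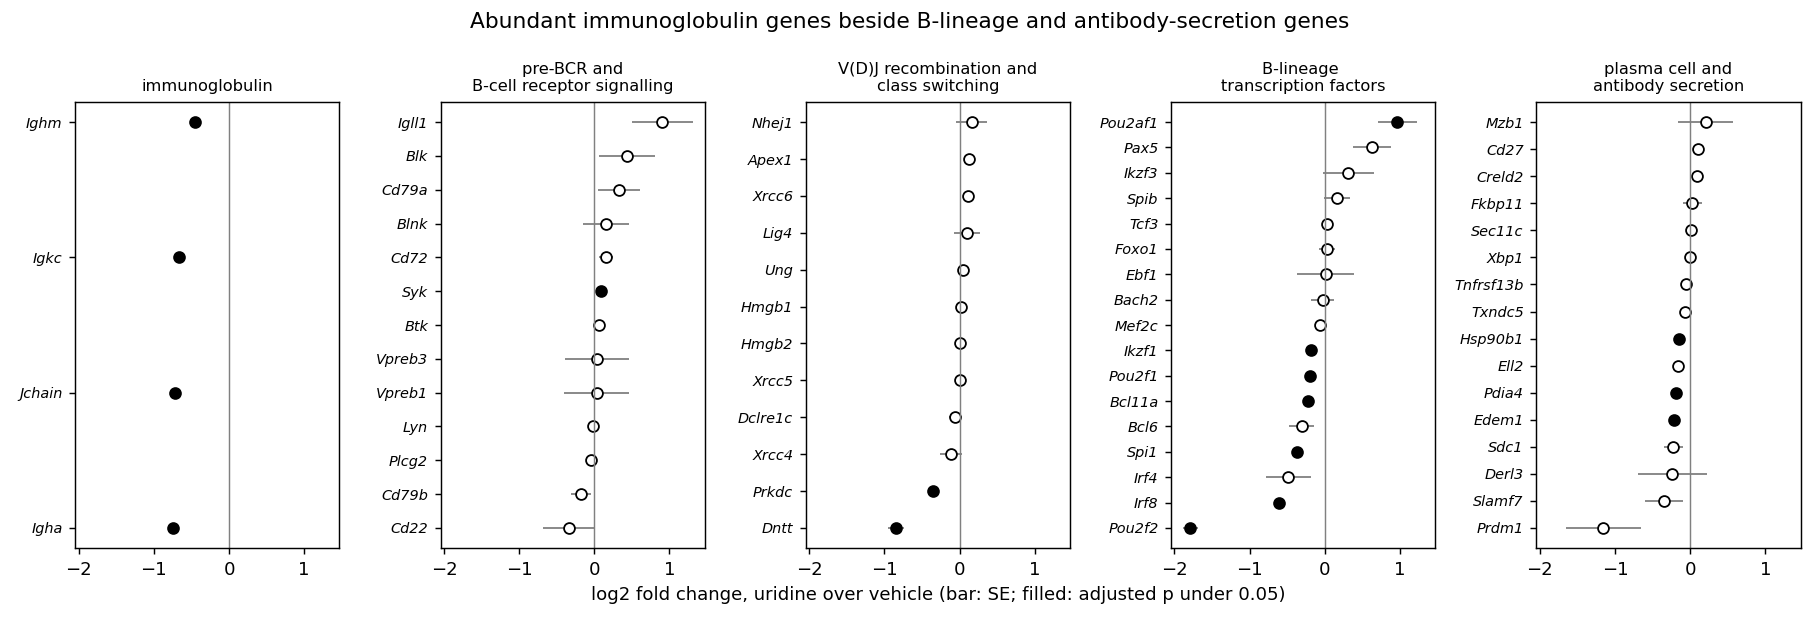
Log2 fold change of uridine over vehicle (horizontal axis, bars of 1 SE) for tested genes of the 4 companion lists and the 4 most counted immunoglobulin members, with filled points for an adjusted p under 0.05. Pou2f2 lies furthest left at -1.79 and Pou2af1 right of zero at 0.96, while most companion genes lie near zero.

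Markers of several cell types were read beside these values. The 12 B-cell markers summed to 141 to 145 CPM with vehicle and 127 to 129.9 CPM with uridine, of which Cd37 made up 123 ± 2.09 and 107 ± 1.42 CPM. Cd37 was the marker that fell among the 9 tested, and the defining B-cell gene Ms4a1 was near zero at 0.112 and 0.0969 CPM. The 8 plasma cell markers summed to 167 to 168 and 159 to 172 CPM, most of it Xbp1 at the level given above. Of the others, Prdm1, Sdc1, Slamf7, Derl3 and Tnfrsf17 had lower means with uridine and Mzb1 and Fkbp11 higher means, and 0 of the 7 tested were called by edgeR, with 1 at an unadjusted p under 0.05 (Prdm1, log2 fold change -1.16 ± 0.50), and 0 by DESeq2 and by limma-voom.

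Most myeloid markers moved in the same direction as the immunoglobulin members. The 12 neutrophil markers summed to 2558 to 2623 CPM with vehicle and 1375 to 1420 CPM with uridine. Nearly all of it was Mpo at 1945 and 1044 CPM, Prtn3 at 344 and 191 CPM and Elane at 230 and 115 CPM. Of the 11 tested, 8 fell and 1 rose, beside 10.1% and 7.18% of all tested genes. Ltf was the one that rose, from 2.94 to 6.45 CPM, and Camp and Cxcr2 were not called. The 12 monocyte and dendritic cell markers summed to 633 to 656 and 331 to 336 CPM (8 of 12 fell). The 12 T and NK cell markers summed to 41.7 to 49.3 and 36.2 to 38.8 CPM (1 of 2 tested fell), nearly all of it Nkg7 at 37.6 and 30.3 CPM and Lck at 5.79 and 6.53 CPM, with the other 10 under 1 CPM in both groups. The 12 HSPC markers summed to 2099 to 2111 and 2127 to 2191 CPM (3 fell, 6 rose), and the 10 erythroid markers, with Hba-a1 at 0, to 662 to 689 and 729 to 738 CPM (1 of 5 tested fell, 3 rose). The part of these cell types in the immunoglobulin decrease was not tested.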

How the data were processed

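A table of raw gene counts, deposited by the authors, covers all 6 libraries and lists positions, biotypes and lengths. The tool HISAT2 2.0.5 and the build mm10 are given, per the submitters' processing notes. No source used here gives the counting program, annotation release, strand setting or handling of multiply matching reads. Counts were used as deposited, filtered with filterByExpr (minimum count 10), normalized by TMM and tested with edgeR 4.0.16 (R 4.3.3; glmQLFit, robust; treatment as the only term), with Benjamini-Hochberg adjustment over all tested genes. CPM use TMM-scaled totals. Identifiers and positions of 43 of 43 members matched GENCODE vM21. Sequences and identities were computed with Biopython 1.88. The fit was tested on simulated data. Alternatives were DESeq2 1.42.0, limma-voom (limma 3.58.1), other filters and scalings, a replicate block and leaving out each library. Members and lists were chosen with earlier results of these data known. Named genes were the called members, the 12 most counted, all constant segments and Jchain, and, in the companion lists, the called genes and 12 preset ones, and another preset gene is not reported here although the counts of its list include it; the marker genes outside these were named after their values were seen.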

Additional observations from a re-analysis of the deposited data

How the results depend on the processing

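The immunoglobulin members that fell numbered 14, 15 with replicate number as a block, 10 under DESeq2, 12 with no count filter, 11 to 13 when 1 library was left out, and 5 when a mean of at least 50 counts was required, which removes most segments from the test. Members that rose numbered 1, 0 under DESeq2 and under that filter, and 0 to 1 when 1 library was left out; the pre-B-cell receptor list had 0 to 1 calls when 1 library was left out. Over all genes, 1056 rose, and 696 did under DESeq2; leaving out 1 library gave 799 to 867 rises and 1234 to 1367 falls. Replicate numbers did not pair the libraries (correlations of same-numbered libraries from -0.0151 to 0.0267); with the block, 972 genes rose and 1428 fell. The difference in summed CPM was -185.9, and -193.9 with no count minimum or -167.3 with a minimum of 600, at which no lambda, variable or joining member is left for shares. It ran from -189.2 to -183.1 when 1 library was left out. Genes near zero changed sign when 1 library was left out: log2 fold changes ran from -0.15 to 0.15 for Ighv1-53 (-3.3e-04 under DESeq2), -0.19 to 0.43 for Ighv1-23, -0.015 to 0.62 for Iglc2, -0.16 to 0.18 for Ebf1, -0.32 to 0.50 for Vpreb1 and -0.020 to 0.031 for Xbp1. The cause of these moves was not tested. Segments of under about 100 counts give wide errors, and values at or under 3 counts cannot be told from zero.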
